A study of Mus musculus with 3 samples.

Results

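The 3 nuclear receptors for steroid hormones and 2 steroid-converting enzymes were followed in the stromal cells of subcutaneous Matrigel masses, namely *Pgr*, *Esr1*, *Nr3c1*, *Akr1c14* and *Akr1c18*. These 5 genes, of 31053 in the count files, were taken by symbol, and each symbol occurred once. They were chosen by their measured levels, which differed between libraries and between stromal cells with and without *Pi16*, so those differences are given as a description, with no test. A cell was called stromal when *Col1a1*, *Col1a2*, *Col3a1*, *Dcn* and *Lum* together made at least 1% of its unique molecular identifiers (UMIs), and Pi16-detected when it held at least 1 *Pi16* UMI.

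Steroid receptors are ligand-dependent transcription factors. *Pgr* encodes the progesterone receptor and *Esr1* oestrogen receptor alpha, both best known from the female reproductive tract and the mammary gland, while *Nr3c1* encodes the glucocorticoid receptor, which most cell types express. Aldo-keto reductases of the 1C family reduce or oxidise steroids: *Akr1c18* encodes 20-alpha-hydroxysteroid dehydrogenase, which inactivates progesterone, and *Akr1c14* encodes a 3-alpha-hydroxysteroid dehydrogenase. *Pi16* marks, with *Dpp4* and *Cd34*, a class of fibroblasts that is regarded as a progenitor pool of connective tissue.

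All mice were female CD-1 animals aged 6 to 8 weeks, and the masses were collected on day 5 after implantation. Matrigel-only mice carried the basement membrane gel alone and were not dosed, Vehicle mice carried Matrigel with rhBMP2, a recombinant bone morphogenetic protein under which ectopic cartilage and bone form, and were dosed by mouth with corn oil and DMSO, and Palo mice carried the same rhBMP2 implant and were dosed daily with 4 mg/kg of palovarotene, an agonist of retinoic acid receptor gamma. Each condition was 1 droplet library of cells pooled from several masses, so differences between conditions could not be set against replicates, no test was run, and all intervals cover counting error only. Matrigel-only and Vehicle differ both by rhBMP2 and by the oral vehicle, whose parts cannot be told apart, and the stage of the oestrous cycle at harvest is not given in the sources used here. The libraries held between 44252421 and 46901673 UMIs and between 5478 and 8728 cells that passed the filters, and pairs of libraries shared between 11 and 21 cell barcodes, 1 of them stromal in both.

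Matrigel-only held 2085 stromal cells, Vehicle 1373 and Palo 1184, and their median depth was 9082, 17114 and 12955 UMIs. All 12 stromal markers were above 5 CPM (UMIs of the gene per 1000000 UMIs of a class of cells) in each library, and between 3 and 15 cells a library lay within 0.2 percentage points on either side of the 1% limit. *Pi16* was detected in 1153 Matrigel-only, 167 Vehicle and 368 Palo stromal cells, that is in 55.3%, 12.2% and 31.1%. After each cell was thinned to 3100 UMIs, which removes the difference in depth, the shares were 45.6%, 7.94% and 22.8%. The macrophage list of 10 genes summed to 945, 312 and 777 CPM in stromal cells, against 24853, 21357 and 26308 CPM in macrophages, and the epithelial list of 7 genes, which covers skin and mammary cells, summed to at most 6.49 CPM. Of the cartilage markers, all 8 were above 5 CPM in Vehicle stromal cells and 2 in each of the other libraries.

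*Akr1c14* and *Akr1c18* are neighbours on chromosome 13 (mm10). *Akr1c14* lies at chr13:4049011-4090688 on the plus strand and *Akr1c18* at chr13:4132615-4150654 on the minus strand, 41.9 kb apart, in a stretch of 538 kb with 8 Akr1c genes in GENCODE vM21. *Pgr* lies at chr9:8899833-8968611 and *Esr1* at chr10:4611593-5005614, both on the plus strand. No window of 91 bases in the coding transcripts of *Akr1c14* or *Akr1c18* occurred in a transcript of another Akr1c gene, and the longest shared run was 56 bases, between *Akr1c18* and *Akr1cl*. The sequences upstream of *Pgr*, *Akr1c14* and *Akr1c18* are shown because these were the 3 members with the steepest contrast between stromal cells with and without *Pi16*. Each is the 250 bases before the start site in RefSeq (GRCm38.p6), written along the gene, with capitals for a TATAAA or CCAAT match on either strand. The RefSeq start of *Akr1c14* lies inside the GENCODE span given above, so its sequence is upstream of the RefSeq start only.
Pgr, chr9:8899583-8899832, plus strand: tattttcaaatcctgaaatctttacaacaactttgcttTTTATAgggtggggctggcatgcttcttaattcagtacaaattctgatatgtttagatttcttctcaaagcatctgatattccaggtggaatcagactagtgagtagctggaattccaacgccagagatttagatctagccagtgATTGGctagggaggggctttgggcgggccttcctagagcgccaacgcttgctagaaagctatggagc
Akr1c14, chr13:4059341-4059590, plus strand: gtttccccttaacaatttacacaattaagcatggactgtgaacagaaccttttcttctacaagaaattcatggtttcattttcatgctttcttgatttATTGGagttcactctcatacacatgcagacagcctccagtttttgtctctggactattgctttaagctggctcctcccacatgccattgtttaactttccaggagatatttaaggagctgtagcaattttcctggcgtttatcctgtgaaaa
Akr1c18, chr13:4150647-4150896, minus strand: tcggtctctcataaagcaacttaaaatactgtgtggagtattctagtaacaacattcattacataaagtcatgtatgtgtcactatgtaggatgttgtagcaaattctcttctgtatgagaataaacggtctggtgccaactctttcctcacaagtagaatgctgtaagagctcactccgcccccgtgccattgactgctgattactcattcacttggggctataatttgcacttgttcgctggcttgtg

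Both strands of the RefSeq windows, from 250 bases before to 50 after each start, were also searched for AGAACA, a half-site of glucocorticoid and progesterone receptors, and AGGTCA, a half-site of oestrogen and retinoic acid receptors. AGAACA was in none of the 5 windows of *Pgr*, *Esr1* (2 windows), *Akr1c14* and *Akr1c18*, and in 19.0% of all 32851 promoter windows. AGGTCA was in the window of *Akr1c18* alone, on the strand of the gene (minus) 28 bases after the start, and in 16.3% of all windows. TATAAA matched once, on the minus strand 212 bases before the *Pgr* start, and in 13.6% of all windows. CCAAT matched on the minus strand 67 bases before the *Pgr* start and 152 bases before that of *Akr1c14*, on the plus strand 49 bases before 1 of the *Esr1* starts, and in 37.4% of all windows. With matches this common, the letters describe the windows and nothing more.

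The receptors differed in how far they followed the *Pi16* split. In Pi16-detected cells *Pgr* stood at 126 CPM (Matrigel-only), 43.2 CPM (Vehicle) and 46.0 CPM (Palo), and in Pi16-undetected cells at 11.0, 1.47 and 2.31. The log2 ratio between these classes was 3.52 (95% interval 3.24 to 3.81), 4.88 (4.29 to 5.51) and 4.32 (3.73 to 4.95), and Pi16-detected cells gave 91.7%, 77.5% and 87.6% of the stromal *Pgr* UMIs, while they gave 49.1%, 10.5% and 26.2% of the UMIs of all genes. The stromal cells without *Pi16* in the libraries with rhBMP2 thus held little *Pgr*, and those of Matrigel-only more. For *Esr1* the levels were 107, 60.6 and 90.6 CPM in Pi16-detected cells and 36.5, 11.6 and 32.0 in the others, a log2 ratio of 1.56, 2.38 and 1.5. *Nr3c1* differed least, with 114, 90.5 and 108 CPM against 94.3, 72.8 and 82.2, and a log2 ratio between 0.27 and 0.40. Pi16-detected cells gave 53.8%, 12.7% and 31.9% of its stromal UMIs, each somewhat above the share for all genes.

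The enzymes were as uneven as *Pgr*. *Akr1c14* stood at 143, 49.3 and 90.6 CPM in the Pi16-detected cells of Matrigel-only, Vehicle and Palo and at 14.0, 0.568 and 4.37 in the Pi16-undetected cells. *Akr1c18* reached 304, 104 and 373 CPM in the former and 38.9, 1.28 and 13.7 in the latter. In Vehicle the log2 ratio of the classes was 6.44 (5.58 to 7.43) for *Akr1c14* and 6.34 (5.77 to 6.97) for *Akr1c18*, with only 12 and 27 UMIs in 1206 Pi16-undetected cells. With CPM averaged over cells in place of summed counts, these ratios were 4.39 and 4.63, outside the intervals. In Palo *Akr1c18* was past all but 1 of 10140 tested genes in the ratio of the classes from summed counts (CPM + 5). That gene was *Pi16*, by which the classes were made. In each library 4 of the 5 members were at least 2-fold higher in Pi16-detected cells (ratio of CPM + 5), all but *Nr3c1*, where 3.06%, 5.6% and 2.84% of tested genes were in Matrigel-only, Vehicle and Palo. In Vehicle *Pgr*, *Akr1c14* and *Akr1c18*, and in Palo *Pgr* and *Akr1c14*, reached the 5 CPM of the test through Pi16-detected cells alone. The members were chosen with this split in view, so the count and the rank are no finding.

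**Figure D1:**
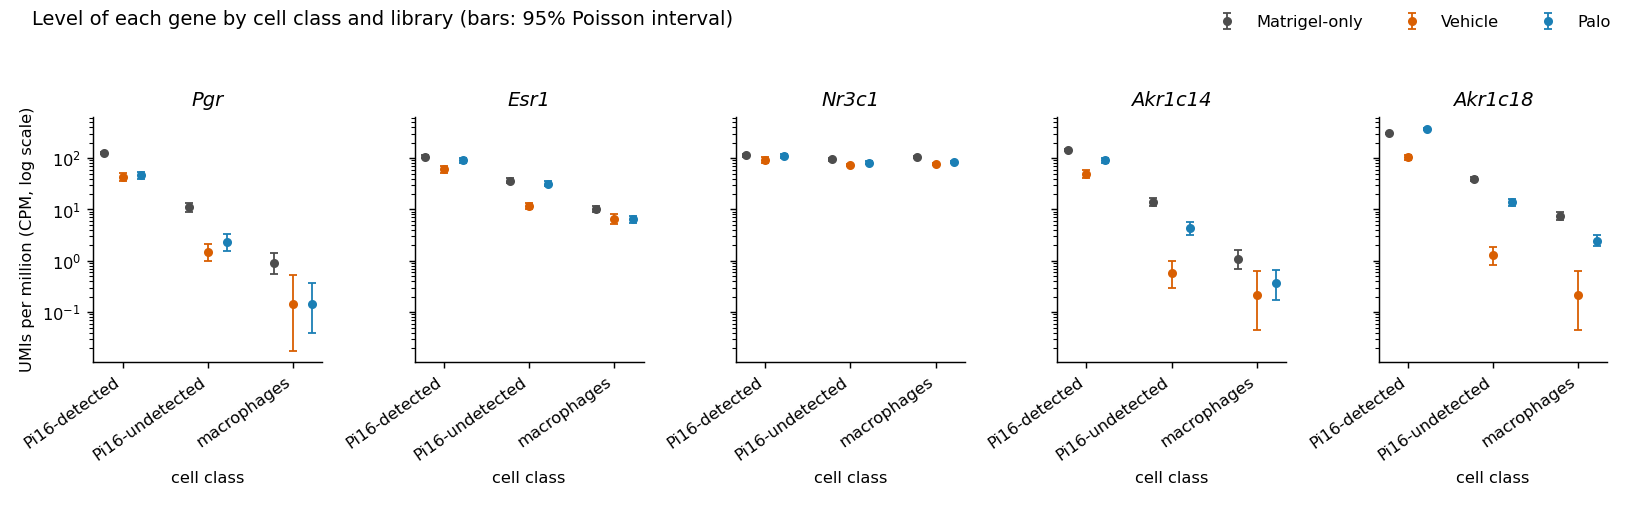
Level of each member in CPM (log scale) in Pi16-detected stromal cells, Pi16-undetected stromal cells and macrophages, with 1 point per library and bars for the exact 95% Poisson interval. *Pgr*, *Akr1c14* and *Akr1c18* are at least 7.8-fold lower in the Pi16-undetected than in the Pi16-detected cells of every library, while *Nr3c1* lies between 72.8 and 114 CPM in all 3 classes.

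Macrophages, which made up 6202, 3331 and 5790 cells, serve as a comparison within each library. *Nr3c1* was as high there as in the stroma, with 104, 77.3 and 85.0 CPM, and macrophages gave 49.4%, 34.8% and 60.7% of its UMIs over all cells. *Pgr* gave 19, 2 and 4 UMIs in macrophages (0.905, 0.145 and 0.145 CPM), and *Akr1c14* 23, 3 and 10. *Akr1c18* had 7.48, 0.218 and 2.46 CPM in macrophages, so its level there was ordered across the libraries as in Pi16-undetected stroma. At 3100 UMIs a cell, *Akr1c18* was seen in 7.32%, 0.288% and 2.85% of Pi16-undetected stromal cells and in 2.07%, 0.125% and 0.733% of macrophages. The part of free RNA in either value was not tested. *Esr1* had 10.1, 6.54 and 6.40 CPM in macrophages, and was seen in 3.20%, 2.06% and 1.87% of them against 11.1%, 3.63% and 9.91% of Pi16-undetected stromal cells.

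Within Pi16-detected cells the levels were graded by the number of *Pi16* UMIs, a division made after the values were seen. In Matrigel-only, *Pgr* was 23.7 CPM in cells with 1 *Pi16* UMI, 91.2 with 2 to 4 and 166 with 5 or more. *Akr1c14* went from 25.7 to 75.9 and 195 CPM, and *Akr1c18* from 78.7 to 233 and 390. In Vehicle the same 3 classes held 3.53, 17.6 and 201 CPM of *Akr1c18*, and in Palo 42.3, 277 and 548. *Nr3c1* showed no such grading, with 102, 88.0 and 123 CPM in Matrigel-only. Cells with 1 *Pi16* UMI made up 17.9% of the Pi16-detected cells of Matrigel-only, 30.5% of those of Vehicle and 22.0% of those of Palo, so the Vehicle class held a larger share of cells near the limit of detection.

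**Figure D2:**
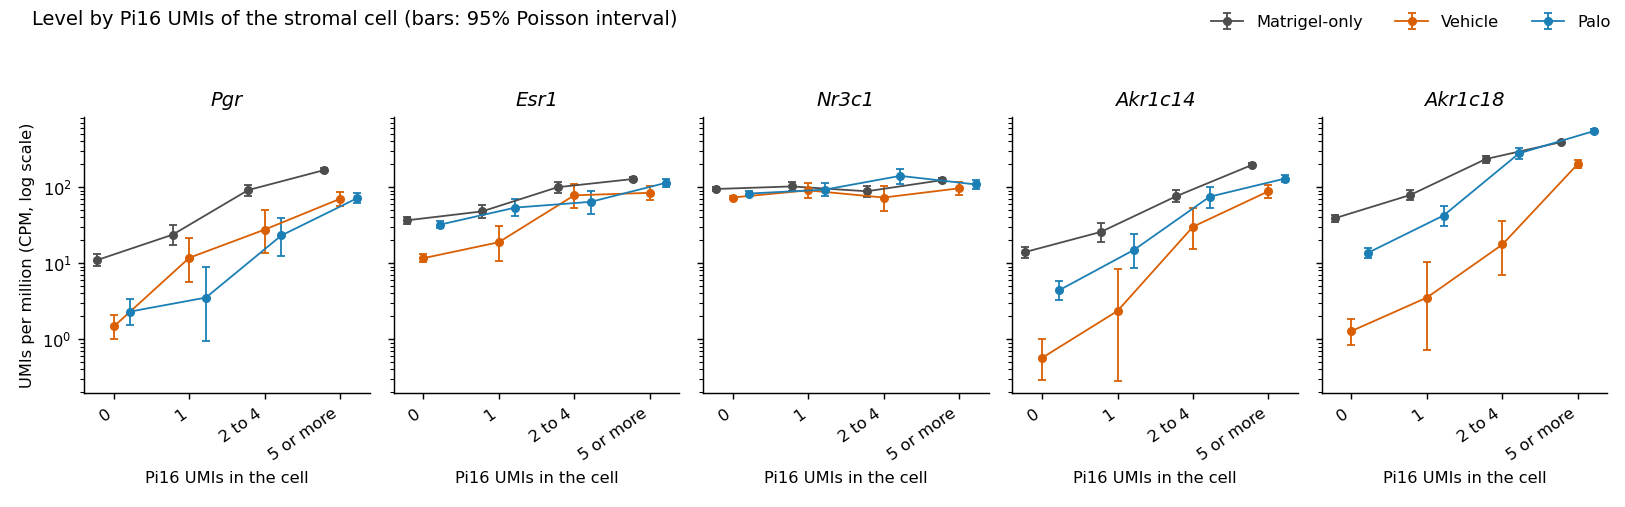
Level of each member in CPM (log scale) against the number of Pi16 UMIs in the stromal cell (0, 1, 2 to 4, 5 or more), 1 line per library, with exact 95% Poisson intervals. All but *Nr3c1* climb with the Pi16 UMIs, and with 5 or more Pi16 UMIs *Akr1c18* stands at 548 CPM in Palo, above 390 in Matrigel-only and 201 in Vehicle.

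Comparison of Vehicle with Matrigel-only asks how the stroma of an rhBMP2 mass differs from that of the gel alone. Over all stromal cells *Pgr* was 67.6 CPM in Matrigel-only and 5.85 in Vehicle, 11.6-fold lower (log2 ratio -3.53, -3.79 to -3.28). *Esr1* was 71.3 and 16.7 CPM, *Akr1c14* 77.2 and 5.68, and *Akr1c18* 169 and 12.0, and *Nr3c1* was closest, with 104 and 74.7. Of the 5, 4 were at least 2-fold lower in Vehicle, among 7.04% of 10349 tested genes, and the members' median log2 ratio of CPM + 5 was -2.74 where that of all tested genes was -0.03. Only 9 tested genes had a lower ratio than *Akr1c18*, 20 than *Akr1c14* and 38 than *Pgr*. The members were chosen by their levels in these libraries. Their counts, median and ranks, here and in the comparisons below, therefore describe them and are no finding. The members stood beside 10 markers of the Pi16 class, all 10 of which were at least 2-fold lower as well, and the share of Pi16-detected cells was lower in Vehicle too, as given above.

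The difference was smaller within the Pi16-detected cells, a class that was not alike in the libraries. The 8 cartilage markers summed to 1600 CPM in this class in Vehicle and to 35.2 CPM in Matrigel-only. Of its 167 Vehicle cells 144 held fewer than 2 UMIs of *Acan* and *Col2a1* together, and the part of the others in the ratios was not tested. Vehicle over Matrigel-only, the log2 ratio in Pi16-detected cells was -1.55 for *Pgr* (-1.84 to -1.26), -1.53 for *Akr1c14* (-1.81 to -1.27), -1.55 for *Akr1c18* (-1.74 to -1.37), -0.82 for *Esr1* (-1.08 to -0.58) and -0.33 for *Nr3c1* (-0.54 to -0.12). That makes 3 members at least 2-fold lower, beside 1.92% of tested genes. With the cells chosen by *Dpp4*, another marker of the class, in place of *Pi16*, no member was at least 2-fold lower, and the log2 ratios were -0.76 for *Pgr*, -0.73 for *Akr1c14* and -0.51 for *Akr1c18*. In cells with both markers they were -0.95, -0.92 and -0.70. Of the 10 class markers 5 were at least 2-fold lower in the Pi16-detected cells, and *Pi16* itself was at 1804 CPM in Matrigel-only and 874 in Vehicle. In cells with 5 or more *Pi16* UMIs the log2 ratios were -1.25 for *Pgr*, -1.15 for *Akr1c14* and -0.95 for *Akr1c18*. In Pi16-undetected cells the ratios were lower still, -2.90 for *Pgr*, -4.62 for *Akr1c14* and -4.93 for *Akr1c18*. There, 4 members were at least 2-fold lower, among 6.16% of tested genes, but *Pgr*, *Akr1c14* and *Akr1c18* reached the 5 CPM of the test through Matrigel-only alone. This class was not alike in the libraries either. *Dpp4* was detected in 313 of its 932 Matrigel-only and 15 of its 1206 Vehicle cells, and 7 of 8 tested class markers were at least 2-fold lower in Vehicle. Of these, *Dpp4* (64.6 CPM in Matrigel-only, 0.852 in Vehicle) and *Cd55* (91.7 and 3.50) reached the 5 CPM of the test through Matrigel-only alone. With the classes weighted as in Matrigel-only, where 55.3% of stromal cells had *Pi16*, Vehicle stood at 22.8 CPM of *Pgr*, 36.7 of *Esr1*, 25.5 of *Akr1c14* and 53.7 of *Akr1c18*, and *Esr1*, with a log2 ratio of -0.96, was then no longer 2-fold lower.

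In Vehicle most stromal cells were of cartilage character, and the members but *Nr3c1* were low in them. Of the Vehicle stromal cells 729 held 2 or more UMIs of *Acan* and *Col2a1*, genes of cartilage matrix, against 0 in Matrigel-only and 3 in Palo. In these cells *Pgr* was 1.31 CPM, *Akr1c14* 0.384, *Akr1c18* 1.38 and *Esr1* 7.54, whereas *Nr3c1* was 73.3. The cells with *Sox9*, the transcription factor of cartilage, but neither this matrix signal nor *Pi16*, were found in all 3 libraries (353, 355 and 350 cells). Any *Sox9* UMI, without thinning, put a cell in this class. Its median depth was 10768, 18245 and 14208 UMIs, so the class need not be alike in the libraries. There *Esr1* was 32.9 CPM (Matrigel-only), 18.7 CPM (Vehicle) and 32.5 CPM (Palo), and *Akr1c18* 25.9, 1.52 and 5.70. *Akr1c14* in the same cells was 16.2 CPM in Matrigel-only, with 1.37 in Vehicle and 1.52 in Palo. The remaining stromal cells showed 48.3, 7.65 and 20.5 CPM of *Akr1c18* and 14.8, 7.14 and 3.15 of *Pgr*.

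Comparison of Palo with Vehicle, both with rhBMP2, asks how the stroma differed with palovarotene. Over all stromal cells *Akr1c18* was 108 CPM in Palo and 12.0 in Vehicle, 8.95-fold higher (log2 ratio 3.16, 2.98 to 3.35), and only 11 of 10233 tested genes had a larger ratio. *Akr1c14* was 27.0 against 5.68 CPM, *Esr1* 47.4 against 16.7, *Pgr* 13.8 against 5.85 and *Nr3c1* 89.0 against 74.7. At least 2-fold higher were 3 members (*Esr1*, *Akr1c14* and *Akr1c18*) among 4.43% of tested genes. *Pgr* passed 2-fold only without the added 5 CPM, with a log2 ratio of 1.24. Of the 10 markers of the Pi16 class 9 were at least 2-fold higher as well. With the classes weighted as in Matrigel-only, only *Akr1c18* remained past 2-fold (1.83), and the log2 ratio was 0.73 for *Esr1*, 0.88 for *Akr1c14* and 0.07 for *Pgr*.

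Within Pi16-detected cells the members parted. The cartilage markers in this class summed to 73.3 CPM in Palo and 1600 CPM in Vehicle. *Akr1c18* was 373 CPM in Palo and 104 in Vehicle, a log2 ratio of 1.84 (1.65 to 2.04), and was the 1 member at least 2-fold higher, among 1.39% of tested genes. *Akr1c14* had a ratio of 0.88 (0.58 to 1.19) and *Esr1* of 0.58 (0.30 to 0.86). *Pgr* was 46.0 and 43.2 CPM, a log2 ratio of 0.09 whose interval ran from -0.26 to 0.45. By this split its level in Palo could not be told from that in Vehicle beyond counting error. In cells with both *Pi16* and *Dpp4* its log2 ratio was -0.47 (-0.85 to -0.09). After thinning, *Pgr* was seen in 12.4% of Palo and 13.5% of Vehicle Pi16-detected cells, and *Akr1c18* in 52.4% and 20.2%. Of the 10 class markers 5 were at least 2-fold higher in Palo in these cells. In Pi16-undetected cells *Esr1* was 32.0 CPM in Palo and 11.6 in Vehicle and *Akr1c18* 13.7 and 1.28. There, 2 of the 3 members with enough UMIs to be tested were at least 2-fold higher, among 4.69% of tested genes. Of these, *Akr1c18* reached the 5 CPM of the test through Palo alone, so the count only describes it. In the same cells 7 of 8 tested class markers were at least 2-fold higher in Palo. Of these, *Dpp4* (65.9 CPM in Palo, 0.852 in Vehicle) and *Cd55* (84.9 and 3.50) reached the 5 CPM of the test through Palo alone.

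Comparison of Palo with Matrigel-only asks how near the palovarotene stroma stood to that of the gel without rhBMP2. The 2 receptors of sex steroids parted here. *Pgr* was 67.6 CPM in Matrigel-only and 13.8 in Palo (log2 ratio -2.30, -2.51 to -2.09), with only 6 of 10230 tested genes lower in ratio, whereas *Esr1* was 71.3 and 47.4 (-0.59, -0.72 to -0.46). *Akr1c14* had a ratio of -1.52, *Akr1c18* of -0.65 and *Nr3c1* of -0.22. The 2 members at least 2-fold lower were *Pgr* and *Akr1c14*, among 0.88% of tested genes. With the classes weighted as in Matrigel-only, *Akr1c14* was at -0.72 and no longer among them. In Pi16-detected cells *Pgr* remained at -1.46 (-1.68 to -1.23), with 16 of 10214 genes lower, and was the 1 member at least 2-fold lower, among 0.715% of tested genes. None of the 10 class markers was past 2-fold in that comparison in either direction, where 0.411% of tested genes were higher. *Esr1* was at -0.24 and *Nr3c1* at -0.07 (-0.23 to 0.09) in the same cells, and *Akr1c14* at -0.65.

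*Akr1c18* differed in direction between the 2 classes of stroma when Palo was set against Matrigel-only, if the classes were made by *Pi16*. In Pi16-detected cells it was 373 CPM in Palo and 304 in Matrigel-only, a log2 ratio of 0.29 (0.21 to 0.38), and in Pi16-undetected cells 13.7 and 38.9, a ratio of -1.51 (-1.78 to -1.24). In Dpp4-detected cells the ratio was -0.42 (-0.51 to -0.34), and in cells with 1 *Pi16* UMI -0.90 (-1.40 to -0.42), while in cells with 5 or more it was 0.49 (0.39 to 0.59). Of the 5 members, 3 were at least 2-fold lower in Pi16-undetected cells, among 0.933% of tested genes. Of these, *Pgr* and *Akr1c14* reached the 5 CPM of the test through Matrigel-only alone. Over all stromal cells, where Palo had fewer Pi16-detected cells, *Akr1c18* was 108 against 169 CPM. With the classes weighted as in Matrigel-only, Palo stood at 191 CPM of *Akr1c18*, 23.9 of *Pgr* and 60.9 of *Esr1*. This weighting rests on the *Pi16* split alone, and the part of the class shares in the difference was not tested.

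**Figure D3:**
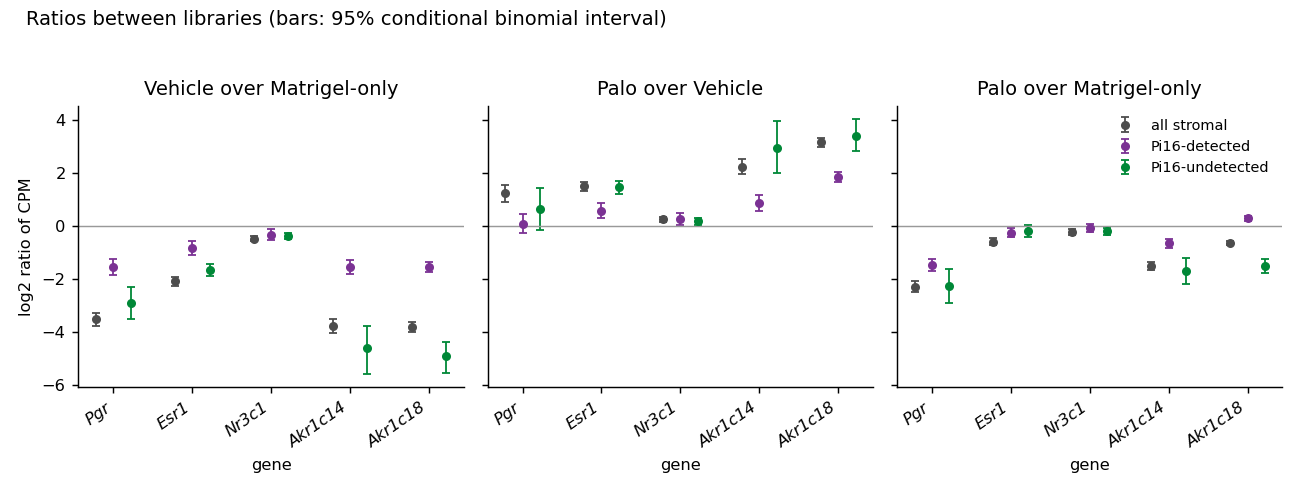
Log2 ratio of CPM for each member in Vehicle over Matrigel-only, Palo over Vehicle and Palo over Matrigel-only, over all stromal cells and within the Pi16-detected and Pi16-undetected cells, with conditional binomial 95% intervals that cover counting error only. In Palo over Matrigel-only the Pi16-detected point of *Akr1c18* lies above 0 at 0.29 and its Pi16-undetected point below 0 at -1.51, while both points of *Pgr* lie below 0, and in Dpp4-detected cells, which are not drawn, that ratio of *Akr1c18* was -0.42.

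The choice of progenitor marker mattered for these ratios. *Dpp4* was detected in 1175 Matrigel-only, 92 Vehicle and 586 Palo stromal cells, of which 313, 15 and 305 had no *Pi16*. In Dpp4-detected cells *Pgr* was 104, 61.3 and 24.1 CPM, so that Palo over Vehicle had a log2 ratio of -1.34 (-1.72 to -0.96) in place of 0.09. *Esr1* (-0.45) and *Akr1c14* (-0.54) were lower in Palo than in Vehicle by that split, and *Akr1c18* had 0.09 (-0.10 to 0.29) with 197 and 185 CPM. In cells with both markers, which numbered 862, 77 and 281, *Akr1c18* was 372, 229 and 470 CPM. The log2 ratio of Palo over Vehicle was then 1.04 for *Akr1c18* (0.84 to 1.23), 0.36 for *Akr1c14* (0.03 to 0.70) and -0.47 for *Pgr* (-0.85 to -0.09). *Pgr* was 151, 78.6 and 56.6 CPM in the cells with both markers, lower in the 2 rhBMP2 libraries than in Matrigel-only. In Vehicle, *Akr1c18* was 229 CPM in cells with both markers and 4.34 CPM, from 6 UMIs, in the 90 cells with *Pi16* alone, where Matrigel-only had 77.6 and Palo 65.8.

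**Figure D4:**
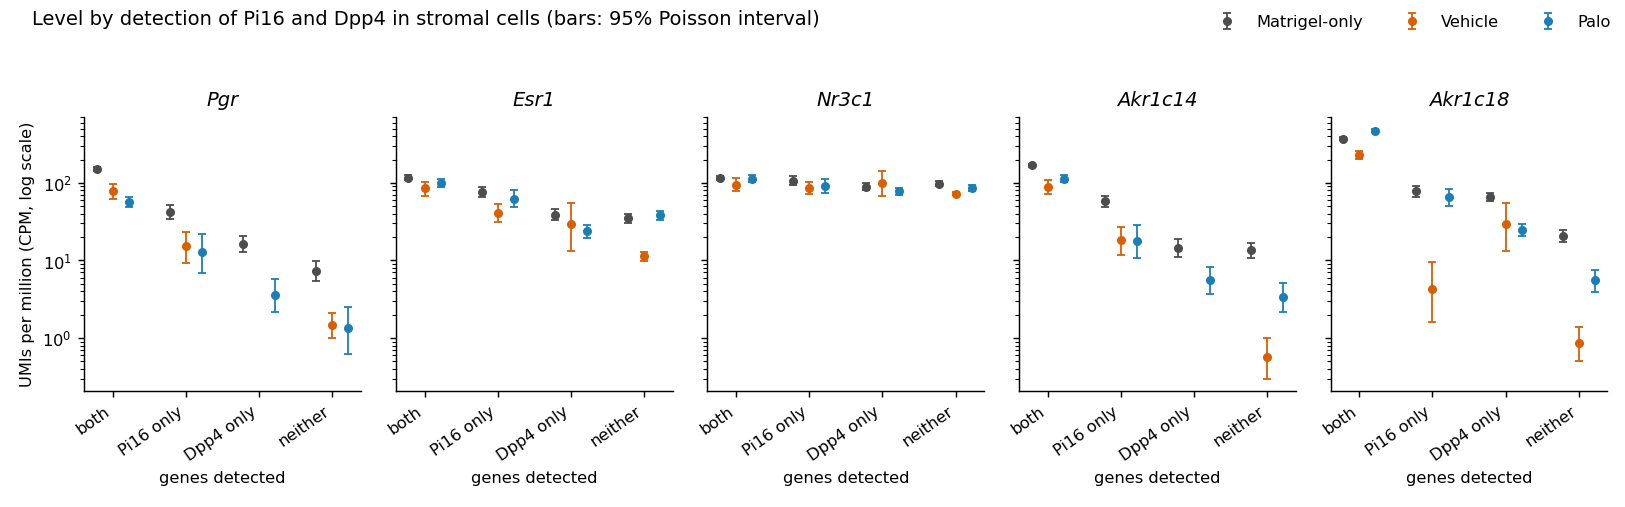
Level of each member in CPM (log scale) in stromal cells with both *Pi16* and *Dpp4*, with *Pi16* only, with *Dpp4* only and with neither, by library, with exact 95% Poisson intervals; classes without a UMI of the gene are not drawn. *Akr1c18* in Vehicle is at 229 CPM in cells with both genes and at 4.34 CPM in those with *Pi16* only, and the Vehicle class with *Dpp4* only has 15 cells.

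The members differed in how far they were seen in the same cells. Without thinning, *Pgr*, *Akr1c14* and *Akr1c18* were all 3 detected in 18.6% of Matrigel-only, 11.4% of Vehicle and 17.9% of Palo Pi16-detected cells, and in 0.966%, 0.0829% and 0.368% of Pi16-undetected cells. The median depth of the Pi16-detected cells was 8419, 14549 and 11021.5 UMIs, so these shares do not compare the libraries. At 3100 UMIs a cell, *Akr1c14* was seen in 44.6% of the Pi16-detected Matrigel-only cells with *Pgr* and 25.7% of those without. In Palo the values were 41.4% and 20.1%. *Akr1c18* was seen in 76.0% of Palo Pi16-detected cells with *Pgr* and 49.1% of those without. In Matrigel-only that contrast was smaller, with 55.5% and 43.9%. Vehicle had 156 Pi16-detected cells of at least that depth, about 21 of them with *Pgr*. There *Akr1c18* was seen in 45.6% of cells with *Pgr* and 16.3% of those without, and *Akr1c14* in 25.0% and 10.5%. *Nr3c1* gave no such contrast, with 29.0% and 30.2% in Matrigel-only. Cells with more *Pi16* UMIs held more of all 3 genes, as given above, and its part in these shares was not tested.

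Over the 6 classes made by 3 libraries and *Pi16* detection, the genes most like each member were found by Pearson's r of log2(CPM + 5) among 6416 genes with at least 20 CPM on average. For *Pgr* these were *Kat2b*, *Adam15*, *Ankrd46*, *Ccdc174* and *Stat2* (highest r 0.995), for *Esr1* *Paxx*, *Efhd1*, *Igfbp6*, *Ces2g* and *Anxa3* (highest r 0.997), and for *Nr3c1* *Kdelc2*, *Adam17*, *Notch2*, *Vsir* and *Pgghg*. For *Akr1c14* they were *Npr1*, *Naaa*, *Timp2*, *Calml4* and *Adamtsl1*, and for *Akr1c18* *Calml4*, *Phactr2*, *Tshz2*, *Arsi* and *Agtrap*. *Npr1*, which encodes a natriuretic peptide receptor, was 109, 44 and 60.7 CPM in Pi16-detected cells and 18.7, 3.98 and 9.33 in the others. *Efhd1* was 187, 58.6 and 139 CPM against 30.5, 1.09 and 24.6. Other genes had a far smaller contrast, since r takes no account of its size. In Matrigel-only *Kat2b* was 31.5 CPM in Pi16-detected and 21.2 in Pi16-undetected cells and *Adam15* 116 and 92.7, where *Pgr* was 126 and 11.0. Only 6 points that share libraries enter each r, and between 98 and 240 genes a member had an r of at least 0.95. Among the members themselves r ran from 0.90 for *Pgr* with *Nr3c1* to 0.98 for *Pgr* with *Akr1c14*.

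Other genes of steroid signalling were taken from lists of receptors, enzymes, chaperones and known targets. Over all tested genes, in stromal cells, 3.6% were at least 2-fold higher in Vehicle than in Matrigel-only and 7.04% lower. In Palo over Vehicle 4.43% were higher and 3.61% lower, and in Palo over Matrigel-only 0.274% were higher and 0.88% lower. *Gper1*, a membrane receptor reported to bind oestrogen, was opposite in direction to *Esr1*, with 25.3 CPM in Vehicle stromal cells against 0.549 in Matrigel-only and 0.568 in Palo, a log2 ratio of 5.53 (4.68 to 6.54) for Vehicle over Matrigel-only. In Vehicle it was 34.8 CPM in the cells with cartilage matrix genes, 17.0 in the Sox9-detected cells and 3.40 in the Pi16-detected cells without the matrix signal. *Gper1* lay below the level set for named genes and was singled out after its value was seen. *Pgrmc1* and *Pgrmc2*, membrane-associated proteins of progesterone signalling, were within 0.36 of 0 on the log2 scale in Vehicle over Matrigel-only and Palo over Vehicle. None of the 7 other Akr1c genes reached the 5 CPM of the test in stromal cells. *Akr1c13* was mainly a macrophage gene, with 19.8, 17.9 and 17.1 CPM there and at most 1.90 in stroma.

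Among 28 measured steroid-converting enzymes, 10 were tested between Vehicle and Matrigel-only. With 1 of these 10 at least 2-fold lower in Vehicle, beside 7.04% of all tested genes, the count says nothing about the enzymes as a group. That gene was *Cyp1b1*, which hydroxylates oestrogens, with 53.4, 10.9 and 38.4 CPM in the 3 libraries. In Matrigel-only *Cyp1b1* was lower in Pi16-detected than in Pi16-undetected cells, with 37.5 and 68.7 CPM, and in Vehicle higher, with 51.7 and 6.06. *Cyp7b1*, which hydroxylates oxysterols and steroids, was 88.4 CPM in the Pi16-detected cells of Vehicle, 20.6 in those of Matrigel-only and 15.7 in those of Palo. *Hsd11b1*, which regenerates active glucocorticoid, was low, with 9.04, 15.3 and 3.62 CPM in Pi16-detected cells and at most 3.04 in the others. It is named for its role, after its values were seen. Of 17 tested chaperones and coregulators none was past 2-fold in the 3 comparisons over all stromal cells, and their median log2 ratio was 0.06 in Vehicle over Matrigel-only and -0.06 in Palo over Vehicle.

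Genes known to be induced by glucocorticoids differed in both directions. Of 16 tested in Vehicle over Matrigel-only, over all stromal cells, 3 were at least 2-fold higher (*Mt1*, *Mt2* and *Ddit4*) and 4 lower (*Dusp1*, *Errfi1*, *Angptl4* and *Txnip*), with a median log2 ratio of -0.51. *Mt1*, a metallothionein, was 1096, 3583 and 602 CPM in Matrigel-only, Vehicle and Palo. *Dusp1*, a phosphatase of MAP kinases, was 207, 41.0 and 171 CPM. In Palo over Vehicle 3 of 15 were higher and 3 lower, and in Palo over Matrigel-only none of 15 was past 2-fold over all stromal cells. In Pi16-undetected cells 4 of 16 (*Mt1*, *Mt2*, *Ddit4* and *Lcn2*) were at least 2-fold lower in Palo than in Matrigel-only, beside 0.933% of all tested genes. *Errfi1*, *Angptl4* and *Lcn2* lay outside the rule for named genes and are named after their values were seen. Of 11 tested genes known to be induced by oestrogen or progesterone, none was past 2-fold in Vehicle over Matrigel-only over all stromal cells and 1, *Ccnd1*, was higher in Palo than in Vehicle. In Palo over Vehicle 4.43% of all tested genes were higher, so that count says nothing about the list. In Pi16-undetected cells 2 of 11, *Ccnd1* and *Igf1*, were at least 2-fold lower in Vehicle than in Matrigel-only. The same 2 were higher in Palo than in Vehicle. These counts stood beside 6.16% and 4.69% of all tested genes and are too small to describe the list. *Greb1*, an early target of oestrogen receptor alpha, was the 1 at least 2-fold lower in Palo than in Matrigel-only over all stromal cells, beside 0.88% of all tested genes. It was 86.1, 59.0 and 34.7 CPM in the Pi16-detected cells of Matrigel-only, Vehicle and Palo, and the log2 ratio of Palo over Matrigel-only in these cells was -1.31 (-1.58 to -1.05), beside -0.24 for *Esr1* and -1.46 for *Pgr*. These lists hold genes with many other inducers.

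**Figure D5:**
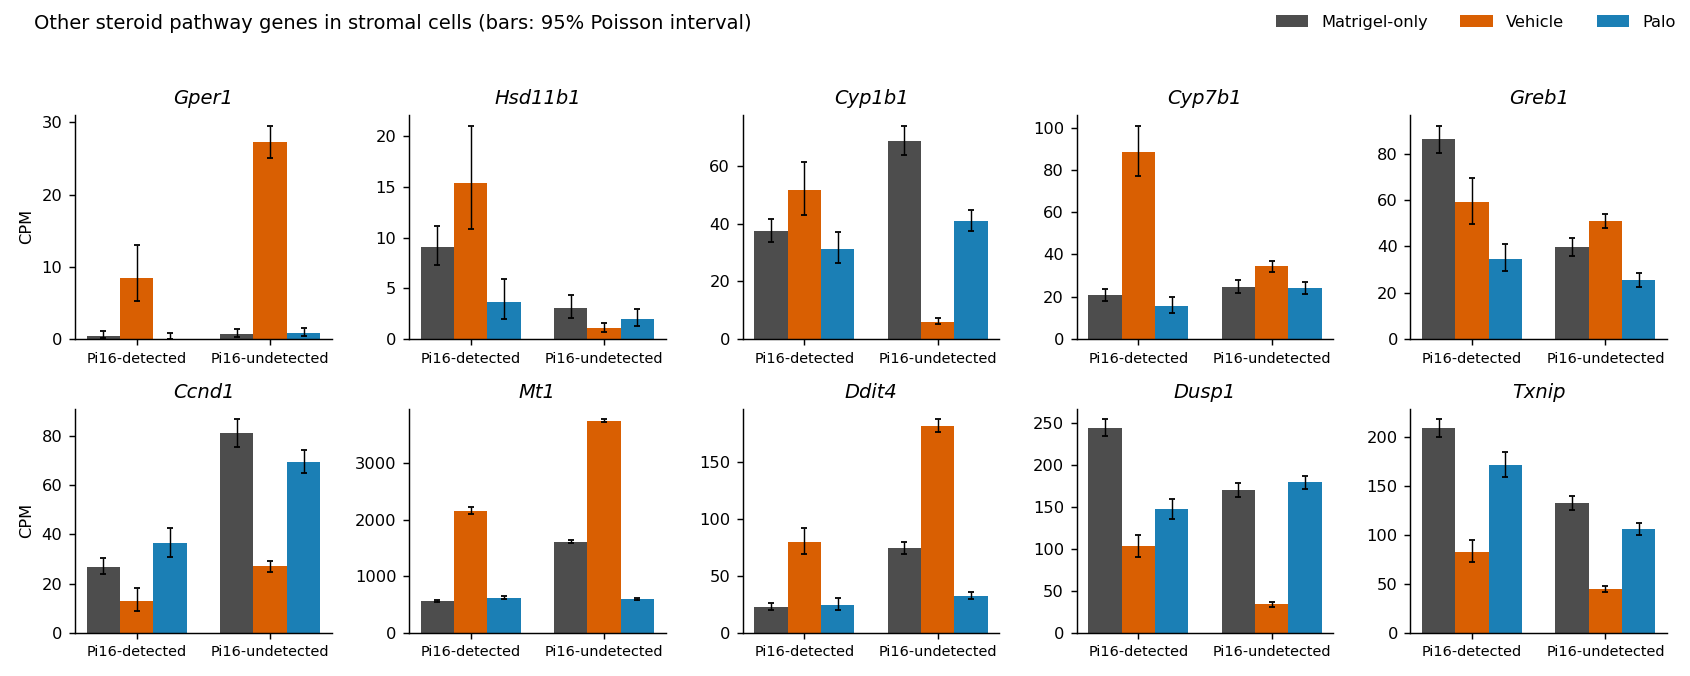
Level in CPM of 10 other genes of steroid signalling in Pi16-detected and Pi16-undetected stromal cells of the 3 libraries, each panel with its own axis from 0 and bars for the exact 95% Poisson interval. *Greb1* is at 86.1, 59.0 and 34.7 CPM in the Pi16-detected cells of Matrigel-only, Vehicle and Palo, while *Gper1* is at most 0.770 CPM in any class outside Vehicle and 27.2 CPM in the Pi16-undetected cells of Vehicle.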

How the data were processed

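The 3 conditions were each measured by droplet single-cell RNA sequencing of 1 library. What the authors deposited were raw UMI counts per gene and barcode, not normalized, and the submitters' processing notes name Cell Ranger 3.0.2 and mm10. Per the study's limits, cells of 200 to 6000 genes and at most 5% mitochondrial UMIs were kept. The authors' clusters were not used, and no doublet caller was run. Macrophages had at least 0.5% of UMIs from the macrophage list and under 0.5% from the 5 stromal genes. Members and lists were chosen with earlier results of these data known.

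Counts were summed per class and given as CPM with exact Poisson 95% intervals, ratios with conditional binomial and shares with exact Clopper-Pearson intervals. These cover counting error only. Shares were computed for cells thinned to 3100 UMIs by the hypergeometric formula, which left out 207 Matrigel-only, 70 Vehicle and 54 Palo stromal cells. Over all genes, log2(CPM + 5) ratios of at least 2-fold were counted among genes with a mean of at least 5 CPM. From each list, genes of at least 20 CPM over the 6 stromal classes were named when among the 3 highest or the 3 with the largest ratio in Vehicle over Matrigel-only, Palo over Vehicle or the Matrigel-only Pi16 split. For similar patterns the 5 genes with the highest r were named. The 33 alternatives set out at the start varied cell limits, scaling, pseudocount, filter, fold, depth and the marker of the split. Classes by *Pi16* UMIs and by *Pi16* with *Dpp4* were added after the data were seen. So were all alternatives for comparisons between libraries within the *Pi16* classes, the *Dpp4* split among them. TMM factors came from edgeR 4.0.16 (R 4.3.3), sums from pandas 2.3.3 and numpy 2.4.6, intervals from scipy 1.17.1 and figures from matplotlib 3.10.9, under Python 3.11.15. The scripts were tested on simulated data. Upstream sequences came from RefSeq (GRCm38.p6), where 4 of the 5 members matched. Of the listed genes, 1 is not reported here.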

Additional observations from a re-analysis of the deposited data

Results flagged for a closer look

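*Akr1c18* was flagged because its ratio of Palo over Matrigel-only had opposite directions in the 2 classes of stromal cells, with both intervals clear of 0. The log2 ratio was 0.29 in Pi16-detected cells and -1.51 in Pi16-undetected cells. The difference between the classes was not tested, since each condition was 1 library. With the classes split by *Dpp4* in place of *Pi16*, the ratio in the detected cells was -0.42, so the higher level in Palo depended on the marker.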

How the results depend on the processing

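Of 690 log2 ratios of members under alternatives, 609 stayed within the counting interval of the reported value and 681 kept its sign. Of the 9 that did not keep it, 5 had a reported interval clear of 0 and are given here. The other 4 had one that spanned 0, namely *Pgr* in Palo over Vehicle in Pi16-detected cells under 3 alternatives (-1.34 by the *Dpp4* split) and *Nr3c1* in Palo over Matrigel-only in Pi16-detected cells under 1. With the classes weighted as in Matrigel-only, *Akr1c18* in Palo over Matrigel-only was 0.17, 1 member was at least 2-fold higher in Palo than in Vehicle and 1 lower in Palo than in Matrigel-only. With the split by *Dpp4*, added after the data were seen, Palo over Vehicle in detected cells was -0.45 for *Esr1*, -0.073 for *Nr3c1* and -0.54 for *Akr1c14*, and Palo over Matrigel-only was -0.42 for *Akr1c18*. By that split 0 members were at least 2-fold lower in Vehicle than in Matrigel-only, 0 higher and 1 lower in Palo than in Vehicle, and 2 lower in Palo than in Matrigel-only. With CPM averaged over cells, Vehicle over Matrigel-only in Pi16-undetected cells was -2.72 for *Akr1c14* and -3.44 for *Akr1c18*, in place of -4.62 and -4.93. Palo over Vehicle in these cells was 0.73 for *Akr1c14* and 2.04 for *Akr1c18*, in place of 2.94 and 3.42. The causes were not tested.

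At 1.5-fold in place of 2-fold, 1384 in place of 729 genes were lower in Vehicle than in Matrigel-only, 1016 in place of 453 higher in Palo than in Vehicle, 418 in place of 90 lower in Palo than in Matrigel-only, and 636, 1030 and 617 higher in Pi16-detected cells of Matrigel-only, Vehicle and Palo, since the limit was lower. A pseudocount of 1 CPM gave 176 genes lower in Palo than in Matrigel-only, and 2 in place of 0 genes of the steroid lists lower in Pi16-detected cells of Palo. By Spearman's rho between 35 and 202 genes a member tied at 1, and ties were taken in the order of the genes in the count matrix. The first 5 by rho shared 0 genes with the Pearson order for each member, which cannot compare the 2 measures. Of the 5 Pearson genes, 1 for *Pgr*, 5 for *Esr1*, 4 for *Nr3c1*, 5 for *Akr1c14* and 2 for *Akr1c18* had a rho of 1, and the lowest rho was 0.94.

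Of 135 shares under alternatives 90 moved. For *Pgr* in Pi16-detected cells the share was lower in Palo than in Vehicle and the CPM higher, so no order was read. Without thinning, the order of the libraries by share also departed from that by CPM for *Esr1* in both *Pi16* classes. The same held for *Nr3c1* in every stromal class. No paired analysis was possible because each condition was 1 library, and leaving out a library would leave no comparison.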
